A study of Mus musculus with 42 samples.

Results

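The subject of these results is the set of 7 genes that carry out antigen presentation by major histocompatibility complex (MHC) class II in the mouse, measured in the liver: H2-Aa, H2-Ab1, H2-Eb1, Cd74, H2-DMa, H2-DMb1 and Ciita. The members were chosen by name from the known pathway and not by a measured value, but earlier results of these data were known by then. All 7 were found, with 1 identifier each, among the 54446 genes of the count table. Liver mRNA was sequenced from 42 female mice that carry the human APOE*3-Leiden transgene, with 1 library per mouse. The chow group held 10 mice kept on a maintenance chow diet, whose label gives week 32 and whose ages are not given. The WTD group held 16 mice on a Western-type diet (WTD) with 1% cholesterol, 15% cocoa butter and 40.5% sucrose by weight, to which 0.05% sodium cholate was added from week 22. The atorvastatin group held 16 mice on the same diet that also received atorvastatin, an inhibitor of HMG-CoA reductase, at 3.0 mg/kg/day and, from week 5, at 4.5 mg/kg/day. The mice of the WTD and atorvastatin groups were 8 to 14 weeks old when the diet began, had a run-in of 3 weeks on WTD before week 0, and were killed at week 32. All groups carried the transgene and all mice were female, so that no non-transgenic and no male liver was compared. The chow mice are numbered in a series of their own (AZ) and the other mice in another (Gen), so that the diet and whatever that numbering stands for cannot be told apart.

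MHC class II molecules are pairs of an alpha and a beta chain that show peptides from endocytosed proteins to CD4 T cells. The chains fold around the invariant chain (encoded by Cd74), cathepsins and related proteases trim it in the endosome, and the DM heterodimer then exchanges its last fragment for a peptide. Transcription of all these genes depends on the co-activator CIITA, which is recruited to a conserved set of promoter boxes by RFX, CREB and NF-Y proteins. In the liver, class II is known from dendritic cells, macrophages, B cells and activated endothelium, whereas healthy hepatocytes have little of it.

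The promoter boxes are shown for 2 members and, for comparison, for H2-Ob, a class II chain that is no member and was not called in any comparison below. Each line gives the 160 bases before the gene's start in RefSeq (assembly GRCm38.p6, all on chromosome 17), at chr17:34287824-34287983 on the minus strand for H2-Aa, chr17:34305707-34305866 on the plus strand for H2-Eb1 and chr17:34238745-34238904 on the plus strand for H2-Ob. Capitals mark the letters GNAAC, the core of the X box bound by RFX, and TGATTGG, the Y box bound by NF-Y.
H2-Aa: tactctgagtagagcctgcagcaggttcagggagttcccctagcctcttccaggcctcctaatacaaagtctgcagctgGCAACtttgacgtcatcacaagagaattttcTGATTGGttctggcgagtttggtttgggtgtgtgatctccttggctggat
H2-Eb1: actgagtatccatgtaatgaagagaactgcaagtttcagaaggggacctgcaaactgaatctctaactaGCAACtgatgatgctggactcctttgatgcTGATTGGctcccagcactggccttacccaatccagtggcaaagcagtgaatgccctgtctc
H2-Ob: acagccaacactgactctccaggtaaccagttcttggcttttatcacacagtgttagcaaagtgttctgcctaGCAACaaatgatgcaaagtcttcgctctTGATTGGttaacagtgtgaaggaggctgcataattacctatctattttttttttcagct

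Over the 250 bases before the start, on either strand, TGATTGG was in 7.23% of all 32851 promoter windows of the table and GNAAC in 79.6%. The pair on one strand, with GNAAC starting 20 to 40 bases before TGATTGG, was in 0.484% of them. H2-Aa held the pair at a distance of 31 bases, H2-Eb1 at 30 and H2-DMb1 at 31. The pair was not found in either of the 2 windows listed for H2-DMa. Among the other class II chains, H2-Oa held it at 31 bases, H2-Ob at 28 and H2-Eb2 at 30, and H2-DMb2 held TGATTGG without the GNAAC at that distance. The table has no window for H2-Ab1, Cd74 and Ciita. The letters were thus present both before chains that rose on WTD and before H2-Ob, which was not called.

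Counts on genes ranged from 15661381 to 36224054 per library (median 19421089.5). Levels are given as CPM, the counts of a gene per 1000000 counts of the library, with library sizes scaled by the trimmed mean of M values (TMM). In 9 of the 42 libraries (3 chow, 5 WTD and 1 atorvastatin) more than 20% of the weakly expressed genes, those with a mean of 1 to 2 CPM in their group, had no count, and for some of the genes below values without these libraries are given as well. The liver label was checked against 6 hepatocyte genes (Alb, Apoa1, Ttr, Cps1, Tat and Apob), whose summed level was 101679 to 152108 CPM on chow, 48971 to 100817 on WTD and 58795 to 123548 on atorvastatin. Chow mouse AZ#1 and WTD mouse Gen#20 stood apart. AZ#1 had 7 of 7 members above the chow median, with a summed B cell marker level of 73.0 CPM against at most 26.3 in the other chow mice. Gen#20 had 7 of 7 members below the WTD median, with the lowest summed macrophage (827 CPM), dendritic cell (55.0 CPM) and cholangiocyte (28.1 CPM) marker levels and the highest hepatocyte marker level (100817 CPM) of its group. The labels of both mice were kept, and the part of these cell types in both profiles was not tested.

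The first comparison asked how the class II genes differed between the diets. All 7 members were higher on WTD than on chow at an adjusted p under 0.01, and their median log2 fold change was 2.41, where that of all 15574 genes tested was 0.03. Of all tested genes, 33.5% were called in this comparison, 17.5% higher and 16.0% lower. In 6 of the 7 members the lowest WTD mouse exceeded the highest chow mouse, which held for 3.4% of all tested genes, the reverse order holding for 2.43%. In bulk tissue, a change in the number of cells of a type and a change of the RNA level per cell cannot be told apart, which applies to each result below.

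**Figure D1:**
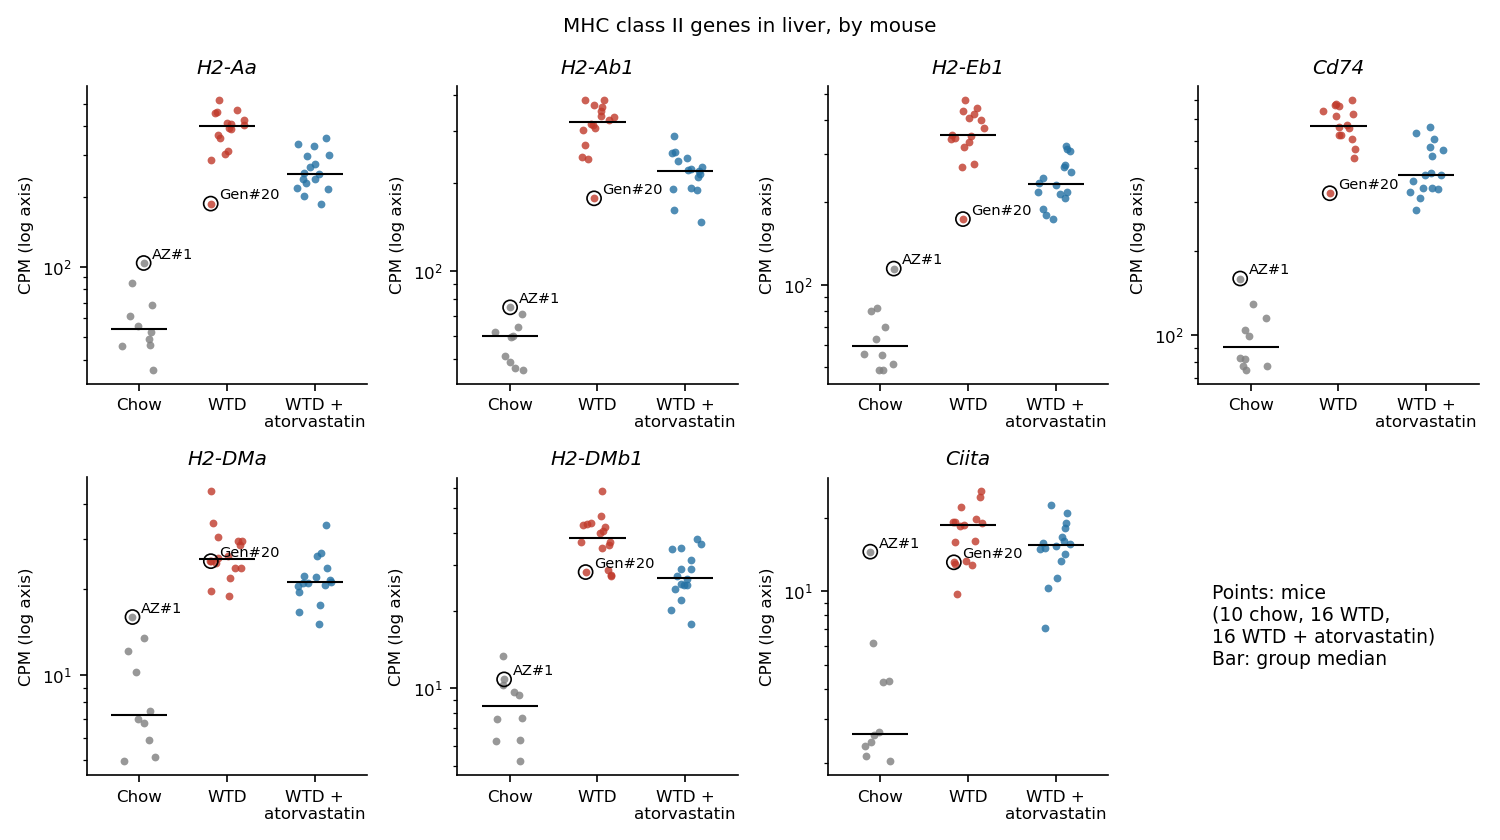
Level of each of the 7 members (CPM, log axis) in each mouse of the 3 groups, with a bar at the group median and rings around chow mouse AZ#1 and WTD mouse Gen#20. The WTD and atorvastatin mice lie above the chow mice except for H2-DMa (atorvastatin only) and Ciita, and the atorvastatin medians lie below the WTD medians.

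The classical chains were measured first. H2-Aa (ENSMUSG00000036594, GRCm38 chr17:34282744-34287823) encodes the alpha chain of the I-A molecule, and it ranged from 36.1 to 104 CPM on chow (median 54.2), from 187 to 521 on WTD (median 400) and from 187 to 356 on atorvastatin (median 251). The lowest WTD mouse was above the highest chow mouse, AZ#1, and the gain was 6.37-fold (log2 2.67 ± 0.15 SE, adjusted p = 2.26e-19 by the quasi-likelihood test of edgeR with Benjamini-Hochberg adjustment, which gives every adjusted p of a gene below). H2-Ab1 (ENSMUSG00000073421, chr17:34257689-34269419), its beta chain, ranged from 45.9 to 75.1 CPM on chow (median 59.7), from 177 to 385 on WTD (median 323) and from 147 to 289 on atorvastatin (median 220). Its increase on WTD was 5.37-fold (log2 2.43 ± 0.11, adjusted p = 4.88e-24), again without overlap. H2-Eb1 (ENSMUSG00000060586, chr17:34305867-34316674) encodes the beta chain of the I-E molecule. It ranged from 48.7 to 114 CPM on chow (median 59.6), from 174 to 476 on WTD (median 352) and from 174 to 323 on atorvastatin (median 233), and was 5.33-fold higher on WTD (log2 2.41 ± 0.14, adjusted p = 5.33e-19). The alpha chain that would complete I-E had no counts, since the gene listed as H2-Ea-ps was at 0 in all 42 mice, and mouse strains that lack this chain are known.

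The invariant chain gene Cd74 (ENSMUSG00000024610), which guards the peptide groove during assembly, was the most abundant member per length in each group. It ranged from 74.8 to 160 CPM on chow (median 90.9), from 324 to 704 on WTD (median 565) and from 283 to 562 on atorvastatin (median 377). Its 16 WTD mice were all above the 10 chow mice, with a 5.66-fold difference (log2 2.50 ± 0.13, adjusted p = 4.58e-21).

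The peptide editors were expressed at lower levels, per length as well. H2-DMb1 (ENSMUSG00000079547, chr17:34153072-34160230), the beta chain of DM, ranged from 5.21 to 13.4 CPM on chow (median 8.55), from 27.2 to 58.2 on WTD (median 38.3) and from 17.7 to 38.0 on atorvastatin (median 26.8). Its WTD and chow mice did not overlap, and the increase was 4.43-fold (log2 2.15 ± 0.14, adjusted p = 6.17e-18). Of the 150-base stretches in its annotated transcripts, 4.71% also occur in those of its neighbour H2-DMb2, and a single read there matches both genes. Whether the other read of the pair settles such cases was not tested. The other members shared no such stretch with another gene.

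H2-DMa (ENSMUSG00000037649, chr17:34119541-34139101), the alpha chain of DM, ranged from 4.94 to 16.0 CPM on chow (median 7.19), from 18.9 to 44.4 on WTD (median 25.5) and from 15.0 to 33.6 on atorvastatin (median 21.1). It was 3.04-fold higher on WTD (log2 1.60 ± 0.16, adjusted p = 3.87e-12), the smallest increase among the members, and WTD and chow did not overlap. Its exons share 360 bases with exons of Brd2 on the opposite strand, and those of Ciita share 329 bases with Dexi. The libraries keep the strand, but the strand setting of the counting is not given in the sources used here.

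Ciita (ENSMUSG00000022504, chr16:10480059-10528418), the co-activator that switches the other members on, ranged from 2.02 to 14.5 CPM on chow (median 2.62), from 9.79 to 25.7 on WTD (median 18.6) and from 7.07 to 22.5 on atorvastatin (median 15.5). The chow value of 14.5 CPM belongs to AZ#1, the other 9 chow mice reached at most 6.15 CPM, and all WTD mice were above those 9. The difference was 4.06-fold (log2 2.02 ± 0.24, adjusted p = 5.59e-10), and leaving out any one mouse gave log2 values from 1.93 to 2.46.

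Merged exons count every annotated exon of a gene and can be longer than the expressed mRNA, so that an order by them is approximate. Per kilobase of merged exons, the order of the medians was the same in the 3 groups. On WTD it ran from Cd74 (336 CPM per kb) through H2-Eb1 (181), H2-Ab1 (126), H2-Aa (105), H2-DMb1 (22.8) and H2-DMa (7.39) to Ciita (1.95). On chow the same genes had 54.1, 30.7, 23.3, 14.3, 5.09, 2.08 and 0.275 CPM per kb. The place of H2-Aa (3798 bases of merged exons) below H2-Ab1 (2568 bases) on WTD rests on these lengths, since its median CPM there was the higher one. Among the neighbours on WTD, the mouse ranges of Cd74, H2-Eb1, H2-Ab1 and H2-Aa overlapped in turn, whereas those of H2-DMb1 (16.2 to 34.6 CPM per kb), H2-DMa (5.50 to 12.9) and Ciita (1.03 to 2.69) were apart from their neighbours.

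The second comparison asked whether atorvastatin changed the class II genes of WTD-fed mice, and it shares its WTD mice with the first. At an adjusted p under 0.01, 5 of the 7 members were lower on atorvastatin and none was higher, and the median log2 fold change was -0.50, where that of all genes was 0.00. Of all tested genes 7.1% were called, 4.84% higher and 2.26% lower. H2-Eb1 was 1.48-fold lower (log2 -0.57 ± 0.11, adjusted p = 0.000402), H2-Aa 1.47-fold (log2 -0.55 ± 0.12, adjusted p = 0.000882), H2-Ab1 1.45-fold (log2 -0.53 ± 0.09, adjusted p = 4.23e-05), Cd74 1.41-fold (log2 -0.50 ± 0.10, adjusted p = 0.000686) and H2-DMb1 1.37-fold (log2 -0.46 ± 0.11, adjusted p = 0.00385). In each of these 5 genes all 16 atorvastatin mice were below the WTD median. The ranges overlapped in all 7 members, and a decrease without overlap was found in 0.0% of the 15574 tested genes and an increase without overlap in 0.00642%.

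H2-DMa and Ciita did not pass the threshold on atorvastatin. The log2 value of H2-DMa was -0.30 ± 0.13 (adjusted p = 0.129), with 13 of 16 atorvastatin mice below the WTD median, and limma-voom with sample weights, an alternative test, did call it (log2 -0.32, adjusted p = 0.000914). That of Ciita was -0.19 ± 0.19 (adjusted p = 0.622), also with 13 of 16 mice below the WTD median. The call of H2-DMb1 was lost at an adjusted p of 0.01001 when 1 WTD mouse (Gen#10) was left out, which left 4 members called. No member had a log2 fold change of 1 or more in size in this comparison.

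Against chow, which both diet groups share as reference, all 7 members stayed higher on atorvastatin, and the median log2 fold change was 1.85, where that of all genes was 0.04. Of all tested genes 25.0% were called here, 14.2% higher and 10.7% lower. The increases were 4.34-fold for H2-Aa, 4.00-fold for Cd74, 3.71-fold for H2-Ab1, 3.60-fold for H2-Eb1, 3.23-fold for H2-DMb1, 2.46-fold for H2-DMa and 3.57-fold for Ciita, with a highest adjusted p of 1.26e-08 for Ciita. Groups did not overlap in 5 of 7 members, against 2.88% of all tested genes with the atorvastatin mice higher and 1.5% with them lower. H2-DMa overlapped through 1 atorvastatin mouse, and 11 of 16 atorvastatin mice were above AZ#1 for Ciita.

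**Figure D2:**
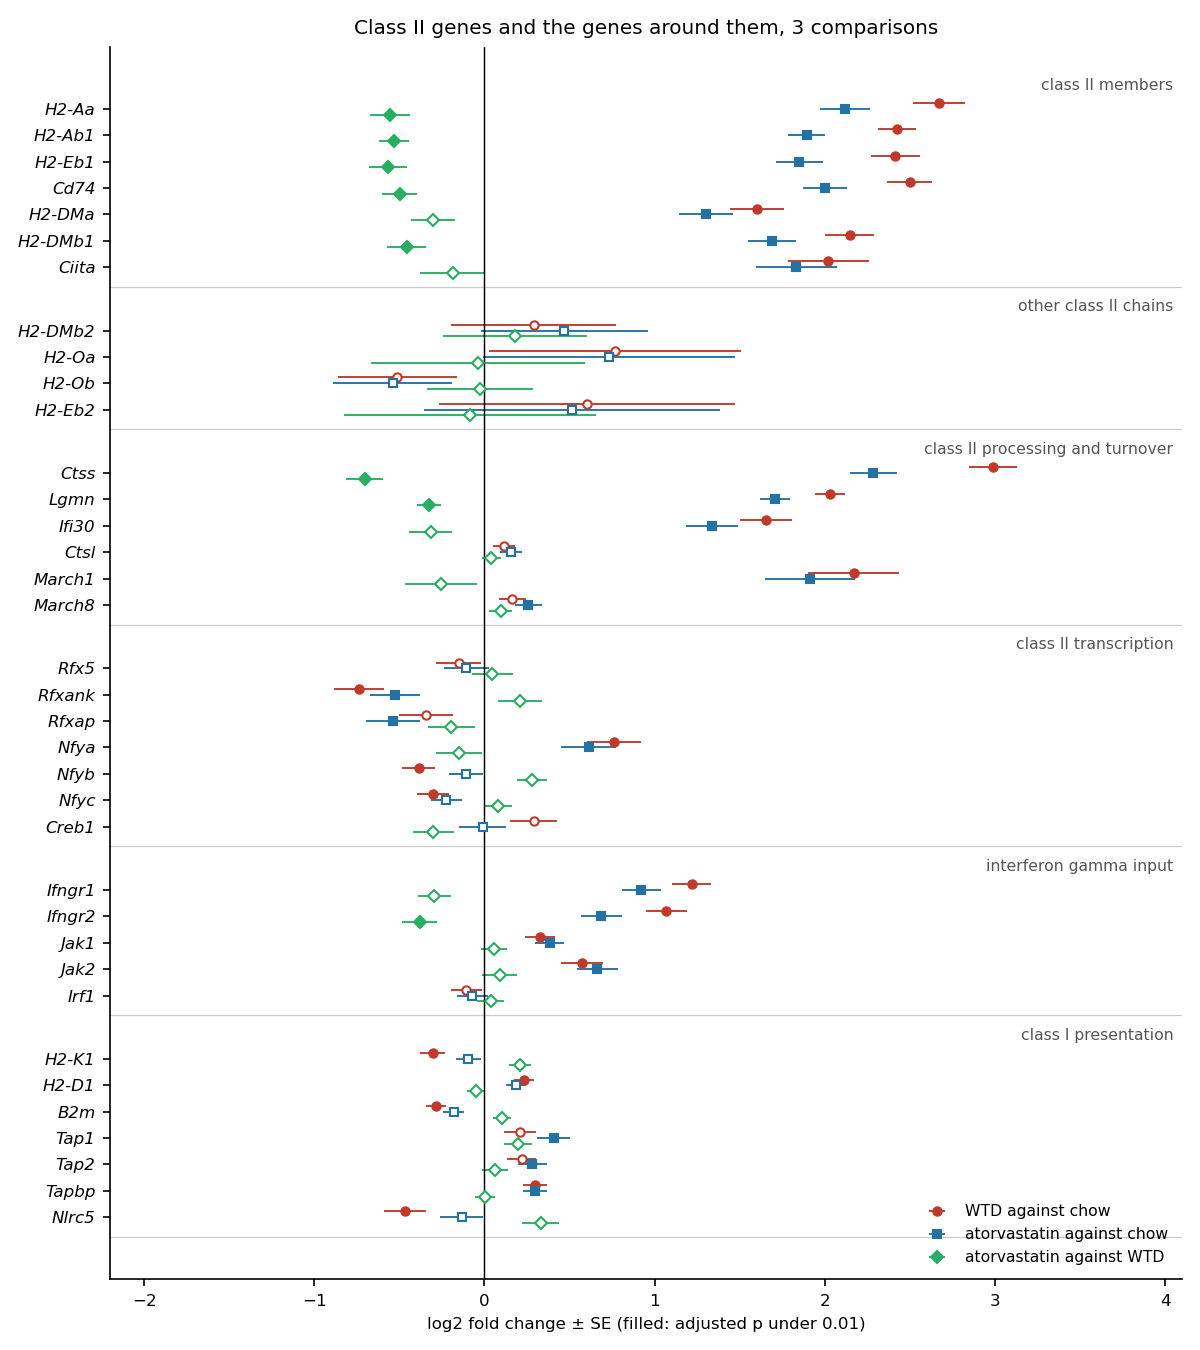
Log2 fold change with its standard error in the 3 comparisons, for the members and for the gene groups around them, with filled symbols for an adjusted p under 0.01. The members sit between 1.30 and 2.67 in both comparisons with chow and between -0.57 and -0.19 for atorvastatin against WTD, and the class I genes stay within 0.46 of 0.

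Scaling by the total count alone, in place of TMM, moved the median of all genes to 0.34 in WTD against chow, -0.16 in atorvastatin against WTD and 0.20 in atorvastatin against chow. The member calls were the same in number, 7, 5 and 7, under that scaling.

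Whether the members moved by equal amounts was asked with the log2 ratio of each member's count to that of H2-Ab1 in the same library, a measure that library scaling cannot change. The differences were tested by permutation (100000 resamples, two-sided), with Benjamini-Hochberg adjustment over 18 tests and a threshold of 0.05. The log2 ratio of H2-DMa to H2-Ab1 was -2.81 ± 0.57 (SD, n = 10) on chow, -3.55 ± 0.35 (n = 16) on WTD and -3.32 ± 0.21 (n = 16) on atorvastatin. The difference was -0.74 for WTD against chow (SE 0.20, permutation p = 0.00063, adjusted p = 0.0113), with 15 of 16 WTD mice below the chow median. It was -0.51 for atorvastatin against chow (SE 0.19, permutation p = 0.00307, adjusted p = 0.0276), with 16 of 16 below. The log2 ratio of H2-Aa to H2-Ab1 was 0.00 ± 0.41 on chow, 0.28 ± 0.13 on WTD and 0.27 ± 0.12 on atorvastatin. That was a difference of 0.28 for WTD against chow (SE 0.13, permutation p = 0.0075, adjusted p = 0.0409) and of 0.27 for atorvastatin against chow (SE 0.13, permutation p = 0.00908, adjusted p = 0.0409). All 16 mice of each diet group were above the chow median of this ratio, and the lowest chow value was that of AZ#2. Chow, the smaller group, had the larger SD in the ratios of both H2-DMa and H2-Aa. In that setting this permutation test can give too small a p, for H2-DMa as for H2-Aa. Whether H2-Aa rose more than H2-Ab1, and whether the lower ratio of H2-DMa passes the threshold, is therefore uncertain.

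H2-Eb1 and Cd74 kept their ratio to H2-Ab1 within the spread between mice in all 3 comparisons (differences from -0.03 to 0.12, adjusted p from 0.333 to 0.871). Between atorvastatin and WTD no ratio passed the threshold. The ratio of Ciita was closest, at -4.18 ± 0.42 on WTD and -3.85 ± 0.32 on atorvastatin (difference 0.34, permutation p = 0.015, adjusted p = 0.0541, higher in 13 of 16 mice than the WTD median). Without the 9 libraries that missed weakly expressed genes, this ratio of Ciita passed (0.35, adjusted p = 0.0103), as did that of H2-DMa in the same comparison (0.25, adjusted p = 0.0148) and that of H2-DMb1 for WTD against chow (-0.28, adjusted p = 0.00333).

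**Figure D3:**
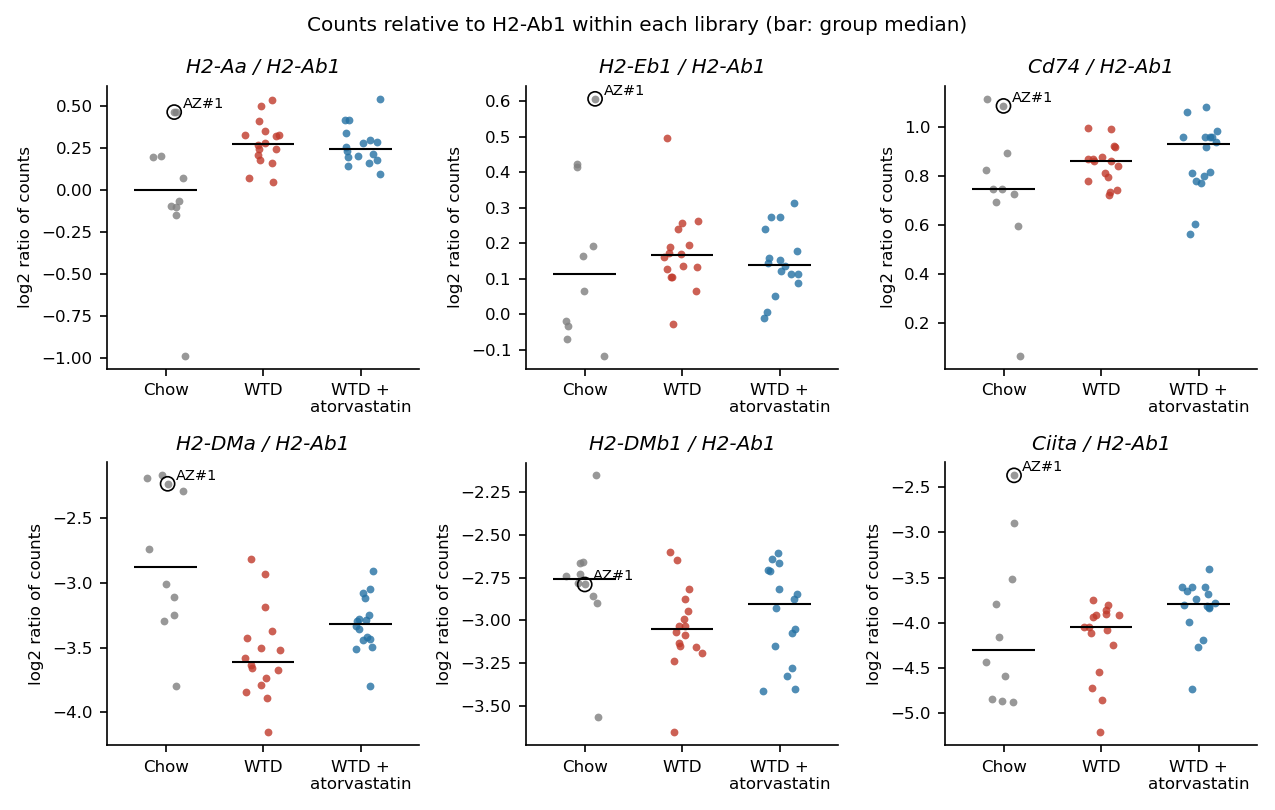
Log2 ratio of each member's count to the count of H2-Ab1 in the same library, by mouse, with a bar at the group median and a ring around chow mouse AZ#1. The ratio of H2-DMa is lower in 15 of 16 WTD mice and 16 of 16 atorvastatin mice than the chow median, while H2-Eb1 and Cd74 keep theirs.

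The other class II chains were low and variable. Of 5 genes (H2-DMb2, H2-Oa, H2-Ob, H2-Eb2 and H2-Ea-ps), 4 were expressed enough to test, and 0 were called by edgeR, DESeq2 or limma-voom in any comparison, with 0 by edgeR at an unadjusted p under 0.05. Their median log2 fold change was 0.45 for WTD against chow and -0.03 for atorvastatin against WTD. H2-Oa and H2-Ob encode the DO heterodimer, an inhibitor of DM that is known from B cells and some dendritic cells. H2-Ob ranged from 1.22 to 12.3 CPM on chow (median 5.20), from 0 to 7.96 on WTD (median 3.93) and from 1.65 to 6.52 on atorvastatin (median 3.54), with a log2 fold change of -0.51 ± 0.35 for WTD against chow (adjusted p = 0.243). H2-Oa had medians of 0.158, 1.46 and 1.35 CPM in the 3 groups, and its highest value of all mice, 7.26 CPM, was in AZ#1. Without AZ#1 and Gen#20, however, H2-Oa was called higher on WTD than on chow (log2 2.55, adjusted p = 0.0056) and on atorvastatin than on chow (log2 2.57, adjusted p = 0.00665), 2 mice being left out together. The standard errors of these 4 chains were 0.35 to 0.87 on the log2 scale, so that changes of that size were not detectable and clearly larger ones could be missed.

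The proteases and related proteins that prepare peptides and clear the invariant chain were measured as 6 genes. On WTD 4 were higher and none lower (median log2 fold change 1.84). Ctss, the cathepsin that makes the last cut in the invariant chain, ranged from 36.2 to 67.7 CPM on chow (median 48.1), from 192 to 475 on WTD (median 403) and from 157 to 338 on atorvastatin (median 216). It was 7.95-fold higher on WTD (log2 2.99 ± 0.14, adjusted p = 2.05e-22) and 1.63-fold lower on atorvastatin than on WTD (log2 -0.70 ± 0.11, adjusted p = 2.66e-05). Lgmn, asparaginyl endopeptidase, was 4.09-fold higher on WTD (adjusted p = 5.69e-25) and 1.25-fold lower on atorvastatin (adjusted p = 0.00108). Ifi30, the lysosomal thiol reductase, was 3.15-fold higher on WTD (adjusted p = 1.79e-12), and on atorvastatin its log2 fold change of -0.32 did not pass (adjusted p = 0.0925).

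March1, the ubiquitin ligase that removes class II from the cell surface, was 4.50-fold higher on WTD (log2 2.17 ± 0.27, adjusted p = 1.42e-09) and was at a log2 value of -0.26 on atorvastatin (adjusted p = 0.514). Ctsl, the cathepsin of thymic epithelium that is abundant in liver lysosomes, and March8 were not called on WTD (log2 0.11 and 0.16, adjusted p = 0.156 and 0.0872), but under total-count scaling both were (log2 0.43 and 0.48, adjusted p = 1.11e-06 and 8.27e-06), which made 6 of 6 genes higher. March8 was called for atorvastatin against chow (log2 0.26, adjusted p = 0.00805), which made 5 of 6 genes higher in that comparison, and lost this call without the 9 libraries that missed weakly expressed genes (log2 0.19, adjusted p = 0.0427) and without AZ#1 and Gen#20 (adjusted p = 0.0148).

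The DNA-binding proteins to which CIITA docks did not rise as a group. Of 7 genes, 1 was higher and 3 were lower on WTD (2 and 0 under total-count scaling), with a median log2 fold change of -0.30, and 0 were called for atorvastatin against WTD (2 had an unadjusted p under 0.05, DESeq2 called 0 and limma-voom called Nfyb higher and Creb1 lower). Nfya, a subunit of the Y box factor NF-Y, was 1.70-fold higher (log2 0.76 ± 0.16, adjusted p = 7.82e-05). Its partners Nfyb (log2 -0.39, adjusted p = 0.001) and Nfyc (log2 -0.30, adjusted p = 0.00596) were lower under TMM scaling, but under total-count scaling they were at -0.07 and 0.01 and not called. Nfyb also lost its call without the 9 libraries that missed weakly expressed genes (adjusted p = 0.0304), and Nfyc under RLE scaling (adjusted p = 0.0167) and by DESeq2 (adjusted p = 0.0112). Rfxank, a subunit of the X box factor RFX, was 1.67-fold lower (log2 -0.74 ± 0.15, adjusted p = 3.68e-05), and under total-count scaling at -0.41 it had an adjusted p of 0.0214. Rfx5, which carries the DNA-binding domain of RFX, had medians of 25.8, 22.0 and 24.0 CPM in the 3 groups (log2 -0.15 on WTD, adjusted p = 0.378).

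Interferon gamma is the best known inducer of Ciita, and genes of its pathway were measured. Ifng itself was at 0 in 9 of 10 chow, 14 of 16 WTD and 11 of 16 atorvastatin mice, with at most 0.729 CPM in any mouse, and was not tested. The receptor chains were higher on WTD, Ifngr1 2.33-fold (log2 1.22 ± 0.12, adjusted p = 9.45e-13) and Ifngr2 2.10-fold (log2 1.07 ± 0.12, adjusted p = 1.95e-10). The kinases that pass on the signal, Jak1 (log2 0.33, adjusted p = 0.00165) and Jak2 (log2 0.57, adjusted p = 9.83e-05), were higher as well. Irf1, an interferon-induced factor that acts on the interferon-responsive Ciita promoter, had medians of 84.3, 76.3 and 81.7 CPM (log2 -0.11 on WTD, adjusted p = 0.35). On atorvastatin, Ifngr2 was 1.30-fold lower than on WTD (log2 -0.38 ± 0.10, adjusted p = 0.00766), and Jak1, Jak2 and Irf1 were not called. Ifngr1 was at -0.30 ± 0.10 (adjusted p = 0.0325) and was called lower by limma-voom (adjusted p = 6.54e-05), without the 9 libraries that missed weakly expressed genes (log2 -0.37, adjusted p = 0.000937), without AZ#1 and Gen#20 (adjusted p = 0.00359) and under total-count scaling (adjusted p = 0.0039).

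Class II works with co-stimulatory molecules, and of 10 such genes and CD4 T cell receptors for them 9 could be tested. On WTD 5 were higher and none lower (median log2 fold change 1.35), and on atorvastatin against WTD 0 were called, with 1 gene at an unadjusted p under 0.05, 0 by DESeq2 and 1, Cd83, by limma-voom and by edgeR on these 2 groups alone. Cd83, a maturation marker of dendritic cells that holds class II at the surface, ranged from 0 to 6.79 CPM on chow, from 10.3 to 34.2 on WTD and from 6.50 to 20.8 on atorvastatin. It was 6.51-fold higher on WTD (log2 2.70 ± 0.35, adjusted p = 1.67e-08), and its log2 fold change on atorvastatin was -0.58 ± 0.27 (adjusted p = 0.166) with all 16 mice below the WTD median. Cd80, Cd86 and Cd40, which deliver or receive the second signal, were 4.23-fold, 2.55-fold and 3.10-fold higher on WTD. The genes of the T cell side (Cd4, Cd28, Icos and Lag3) were not called by edgeR with all mice and TMM scaling in any comparison, and Ctla4 was too low to test. Cd4 was at a log2 value of 1.69 ± 0.60 on WTD (adjusted p = 0.0191), which DESeq2 and limma-voom called (adjusted p = 0.00225 and 0.000936), as did edgeR without AZ#1 and Gen#20 (log2 2.24, adjusted p = 0.00294) and under total-count scaling (adjusted p = 0.00529). Icos was at 1.47 ± 0.54 for atorvastatin against chow (adjusted p = 0.0299) and was called there by DESeq2 (adjusted p = 0.00457).

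MHC class I, which shows peptides from inside the cell to CD8 T cells and is made by nearly every cell, is the nearest relative of this pathway. Of its 7 genes, 2 were higher and 3 lower on WTD (4 and 0 under total-count scaling, median log2 fold change 0.21), and 0 were called for atorvastatin against WTD (3 had an unadjusted p under 0.05, DESeq2 called 0 and limma-voom called H2-K1 and Nlrc5 higher). In that comparison H2-K1 was also called higher without AZ#1 and Gen#20 (log2 0.23, adjusted p = 0.00786), and H2-D1 lower under total-count scaling (log2 -0.21, adjusted p = 0.00642). H2-K1, a heavy chain, had medians of 1955, 1525 and 1816 CPM, with a log2 fold change of -0.30 on WTD (adjusted p = 0.000601). B2m, the light chain, was at -0.29 (adjusted p = 6.94e-05), and under total-count scaling both were at 0.01 and 0.03 and not called. Nlrc5, the class I counterpart of Ciita, was at -0.46 (adjusted p = 0.00162), which under total-count scaling became -0.15 without a call. H2-D1 and Tapbp were higher by 0.23 and 0.30. The difference between the class I and class II lists was not tested.

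Marker genes of the cells that could carry class II were measured in the same libraries. Of 8 macrophage markers, Itgam had no count in any mouse, and whether its transcript was absent or its reads were not assigned was not tested. The other 7 could be tested, and 7 were higher on WTD (median log2 fold change 2.37). Their summed level was 156 to 232 CPM on chow, 827 to 2126 on WTD and 651 to 1410 on atorvastatin, and 4 were lower on atorvastatin than on WTD: Lyz2 (log2 -0.99, adjusted p = 6.9e-07), Trem2 (-0.97, adjusted p = 0.00015), Cx3cr1 (-0.78, adjusted p = 0.00214) and Cd68 (-0.56, adjusted p = 0.000162). Ccr2, the receptor of recruited monocytes, was below the WTD median in all 16 atorvastatin mice (log2 -0.62 ± 0.19, adjusted p = 0.0181) and was called lower in 6 alternatives, among them DESeq2 (adjusted p = 0.00674), limma-voom (adjusted p = 6.41e-05) and edgeR on these 2 groups alone (adjusted p = 0.002) or without AZ#1 and Gen#20 (adjusted p = 0.00308). The median summed macrophage level thus moved in the same direction as that of the class II members in both comparisons. So did the medians on chow, WTD and atorvastatin of cholangiocyte (23.4, 76.3 and 46.4 CPM) and dendritic cell markers (32.2, 94.9 and 81.0). The same held for neutrophil (10.4, 28.6 and 21.9), Kupffer cell (334, 1267 and 1198) and T cell markers (9.66, 11.5 and 10.9). Medians of B cell, sinusoidal endothelial and hepatocyte markers moved the other way. The part of any of these cell types in the class II differences was not tested.

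Among 9 dendritic cell markers, 3 were higher on WTD, Itgax (3.13 on the log2 scale), Cd209a (2.56) and Fscn1 (1.40), and 0 were called for atorvastatin against WTD (2 had an unadjusted p under 0.05, DESeq2 called 0 and limma-voom called Itgax lower). Without the 9 libraries that missed weakly expressed genes, 6 of the 9 were higher on WTD. Their summed level was 22.8 to 46.3 CPM on chow, 55.0 to 121 on WTD and 56.7 to 113 on atorvastatin. Markers of conventional dendritic cells were low, Flt3 with medians of 0.886, 2.81 and 2.56 CPM and Xcr1 with 0.731, 0.492 and 0.987 CPM in the 3 groups. Flt3 was not called on WTD with all mice (log2 1.48, adjusted p = 0.0322), but it was called without the 9 libraries (log2 1.53, adjusted p = 0.00852), without AZ#1 and Gen#20 (adjusted p = 0.00738), under total-count scaling (adjusted p = 0.00802) and by DESeq2 (adjusted p = 0.00772). Of 6 Kupffer cell markers, 3 were higher on WTD, and on atorvastatin against WTD Cd5l was lower (log2 -0.39, adjusted p = 0.000715) and Clec4f higher (log2 0.62, adjusted p = 0.0047, and 0.0159 under total-count scaling). Marco, a scavenger receptor, was at -2.16 in that comparison (adjusted p = 0.0201) and was called lower without the 9 libraries (log2 -2.56, adjusted p = 0.00912). Folr2 was not called there by edgeR (adjusted p = 0.158) but was called higher by limma-voom (log2 0.50, adjusted p = 0.000814). The summed level of the 6 Kupffer cell markers was 239 to 466 CPM on chow, 903 to 2376 on WTD and 843 to 1489 on atorvastatin.

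None of 8 B cell markers and 6 T cell markers was called by edgeR, DESeq2 or limma-voom in any comparison. These genes were weakly expressed. Log2 fold changes of -1.32 (a B cell marker, WTD against chow) and -1.38 (a T cell marker, atorvastatin against WTD) were not called, so changes of that size could be missed. The summed B cell level was 6.64 to 73.0 CPM on chow, 4.29 to 22.3 on WTD and 10.6 to 27.3 on atorvastatin, and the summed T cell level was 4.26 to 22.5, 6.61 to 22.8 and 7.21 to 15.5 CPM. At an unadjusted p under 0.05, 2 B cell markers and 0 T cell markers differed between WTD and chow, and without the 9 libraries that missed weakly expressed genes Cd79b was lower on atorvastatin than on chow (log2 -0.84, adjusted p = 0.0092). Cholangiocyte markers were higher on WTD in 4 of 4 genes (16.6 to 37.5 CPM summed on chow, 28.1 to 103 on WTD and 28.2 to 88.5 on atorvastatin), and 0 of 4 were called for atorvastatin against WTD by edgeR with all mice or by DESeq2, although all 4 had an unadjusted p under 0.05 and limma-voom called 4 lower. In that comparison 1 of the 4 was called lower by edgeR in each of 3 alternatives: Epcam without AZ#1 and Gen#20 (adjusted p = 0.00616), Krt7 with these 2 groups alone (adjusted p = 0.00907) and Sox9 without the 9 libraries (adjusted p = 0.0031). Of the 5 sinusoidal endothelial markers, 1 was higher and 2 were lower on WTD (3 and 1 under total-count scaling). Of 6 neutrophil markers, 4 were tested and 3 were higher on WTD, with Mpo and Elane too low to test. S100a8 lost that call without the 9 libraries (log2 1.40, adjusted p = 0.01003) and with these 2 groups alone (adjusted p = 0.0123), and S100a9 lost it by limma-voom (adjusted p = 0.0134). The 6 hepatocyte markers were all lower on WTD, except that under total-count scaling Apob was at 0.05 and Cps1 at -0.37 (adjusted p = 0.0129) without a call. On atorvastatin 4 of the 6 were higher than on WTD. For atorvastatin against chow, leaving out the 9 libraries also added calls for Krt7 (log2 0.99, adjusted p = 0.00651), Nfyc (log2 -0.30, adjusted p = 0.00256) and H2-D1 (log2 0.22, adjusted p = 0.00852) and removed those of Rfxap (log2 -0.38, adjusted p = 0.0195) and Tap2 (log2 0.24, adjusted p = 0.0241).

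**Figure D4:**
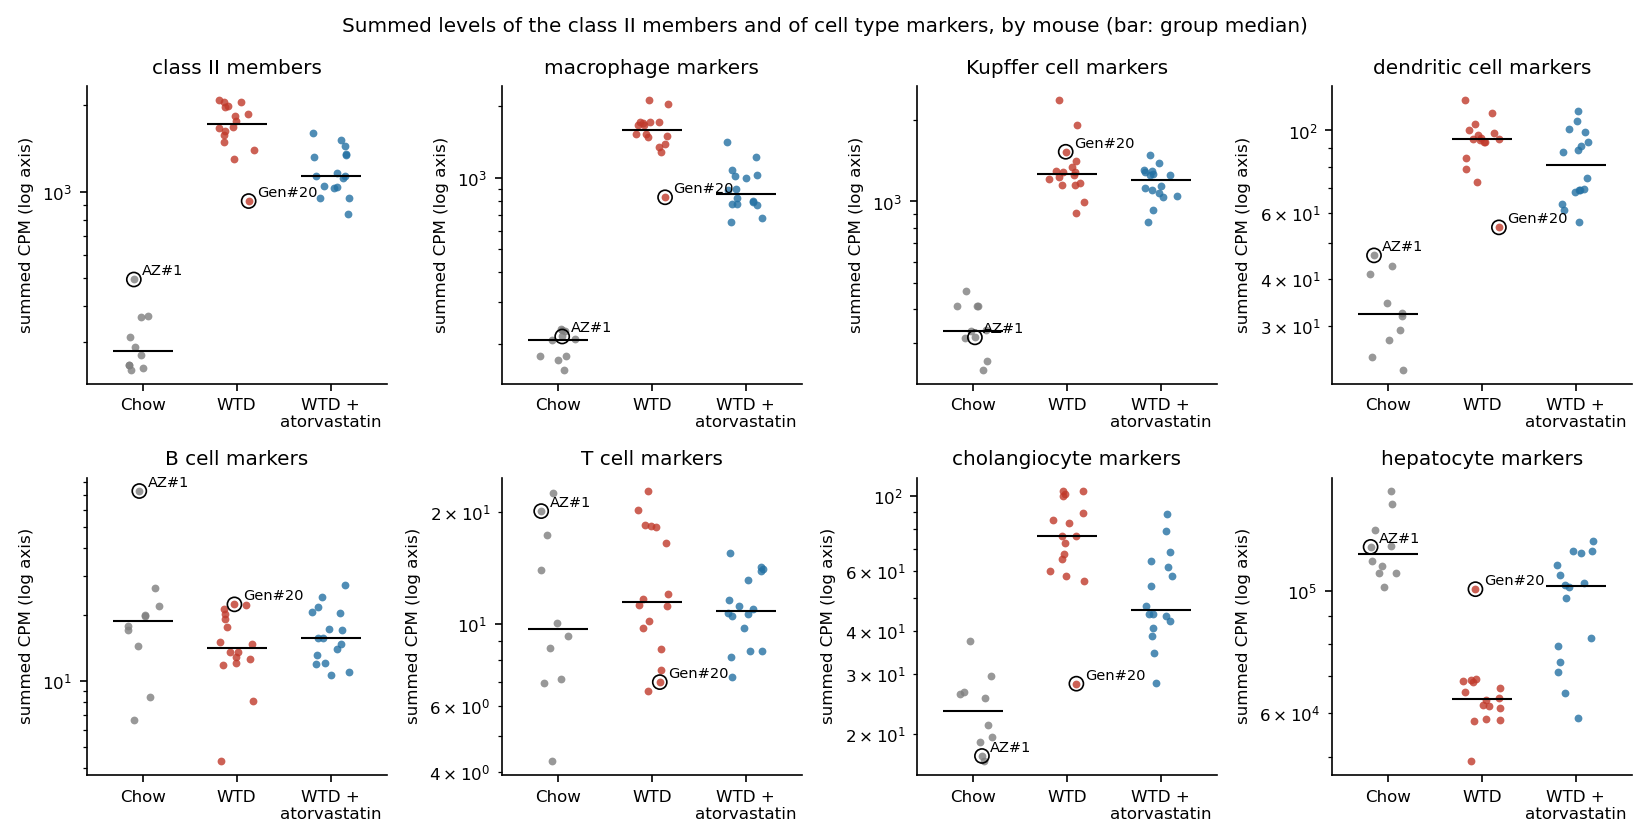
Summed level of the class II members and of the markers of 7 cell types in each mouse (CPM, log axis), with a bar at the group median and rings around AZ#1 and Gen#20. The group medians of all but the B cell and hepatocyte markers are highest on WTD. B and T cell markers overlap between the groups, and AZ#1 stands above the other chow mice in B cell markers.

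Variation from mouse to mouse within a group was described with Cd74 on the x axis (log2 CPM, 36 relations, permutation p with Benjamini-Hochberg adjustment over them). In the 16 WTD mice Cd74 followed H2-Eb1 (Pearson r = 0.98, permutation p = 1e-05, adjusted p = 9e-05, Spearman rho = 0.96, permutation p = 1e-05), and r was 0.95 without the 2 mice farthest from the median of Cd74. In the 16 atorvastatin mice the same relation had r = 0.93 (permutation p = 1e-05, adjusted p = 9e-05), rho = 0.90 (permutation p = 1e-05) and r = 0.89 without 2 mice, 1e-05 being the smallest p that these permutations can give. Cd74 and H2-Ab1 had r = 0.96 on WTD and 0.87 on atorvastatin (adjusted p = 9e-05 and 0.0003), with rho of 0.91 in both (adjusted p = 9e-05 and 0.000144) and r of 0.88 and 0.82 without 2 mice. In the 10 chow mice H2-Aa followed Cd74 (r = 0.92, adjusted p = 0.000874, rho = 0.90, adjusted p = 0.00342, and r = 0.89 without 2 mice), but H2-Ab1 did not pass (r = 0.62, adjusted p = 0.105, rho = 0.43, adjusted p = 0.326, and r = 0.41 without 2 mice). H2-Eb1 passed there by r (0.86, adjusted p = 0.00799) and not by rho (0.65, adjusted p = 0.112), and r was 0.59 without AZ#1 and AZ#6.

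The relations of the editors with Cd74 passed in some groups. For H2-DMa, r was 0.81 on chow (adjusted p = 0.0146, rho = 0.72, adjusted p = 0.0579), 0.37 on WTD (adjusted p = 0.213, rho = 0.45, adjusted p = 0.163) and 0.59 on atorvastatin (adjusted p = 0.0304, rho = 0.44, adjusted p = 0.178), and without 2 mice it was 0.58, 0.31 and 0.57. For H2-DMb1, r was 0.43 on chow (adjusted p = 0.296, rho = 0.32, adjusted p = 0.497), 0.67 on WTD (adjusted p = 0.0117, rho = 0.66, adjusted p = 0.0193) and 0.44 on atorvastatin (adjusted p = 0.147, rho = 0.38, adjusted p = 0.249), and without 2 mice it was -0.18, 0.53 and 0.41. Differences between the members in these relations were not tested.

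Ciita and Cd74 were related on atorvastatin (r = 0.61, permutation p = 0.00876, adjusted p = 0.021, rho = 0.69, adjusted p = 0.0137, and r = 0.67 without 2 mice). The same relation did not pass on WTD (r = 0.26, permutation p = 0.33, adjusted p = 0.409, rho = 0.21, adjusted p = 0.516) or on chow (r = 0.51, adjusted p = 0.194, rho = 0.21, adjusted p = 0.633), where r was -0.47 without AZ#1 and AZ#6. The difference between groups was not tested.

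Of the marker genes, Itgax, the integrin CD11c of dendritic cells and activated macrophages, followed Cd74 in each group. Its r was 0.73 on chow (permutation p = 0.0152, adjusted p = 0.0304, rho = 0.88, adjusted p = 0.0064), 0.84 on WTD (permutation p = 0.00023, adjusted p = 0.00103, rho = 0.71, adjusted p = 0.00814) and 0.78 on atorvastatin (permutation p = 0.00038, adjusted p = 0.00152, rho = 0.82, adjusted p = 0.00154). Without 2 mice these were 0.68, 0.64 and 0.83. Flt3, the marker of conventional dendritic cells, did not follow Cd74 in each group. On WTD it passed by r (0.64, adjusted p = 0.0299) and not by rho (0.24, adjusted p = 0.497). It did not pass on chow (r = 0.51, adjusted p = 0.195, rho = 0.64, adjusted p = 0.116) or on atorvastatin (r = -0.24, adjusted p = 0.492, rho = 0.11, adjusted p = 0.741). Adgre1, the pan-macrophage receptor F4/80, did not follow Cd74, with r of -0.03, -0.04 and 0.19 (adjusted p from 0.562 to 0.936), nor did the B cell gene Cd79b, with r of 0.23, -0.27 and -0.42 (adjusted p from 0.173 to 0.589). Clec4f, a marker of resident Kupffer cells, was lower in atorvastatin mice with more Cd74 (r = -0.62, permutation p = 0.00692, adjusted p = 0.0178, rho = -0.61, adjusted p = 0.0384, r = -0.71 without 2 mice). On WTD that relation had r = -0.55 (adjusted p = 0.0569), and -0.34 without 2 mice, 1 of them Gen#20. Ccr2 followed Cd74 on WTD (r = 0.73, permutation p = 0.0012, adjusted p = 0.00432, rho = 0.61, adjusted p = 0.0384), where r was 0.45 without Gen#19 and Gen#20, so that the relation rests in part on these 2 mice. It did not pass on chow (r = -0.04, adjusted p = 0.932, rho = 0.28, adjusted p = 0.516) or on atorvastatin (r = 0.40, adjusted p = 0.187, rho = 0.39, adjusted p = 0.249), where r was 0.80 and 0.64 without 2 mice.

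**Figure D5:**
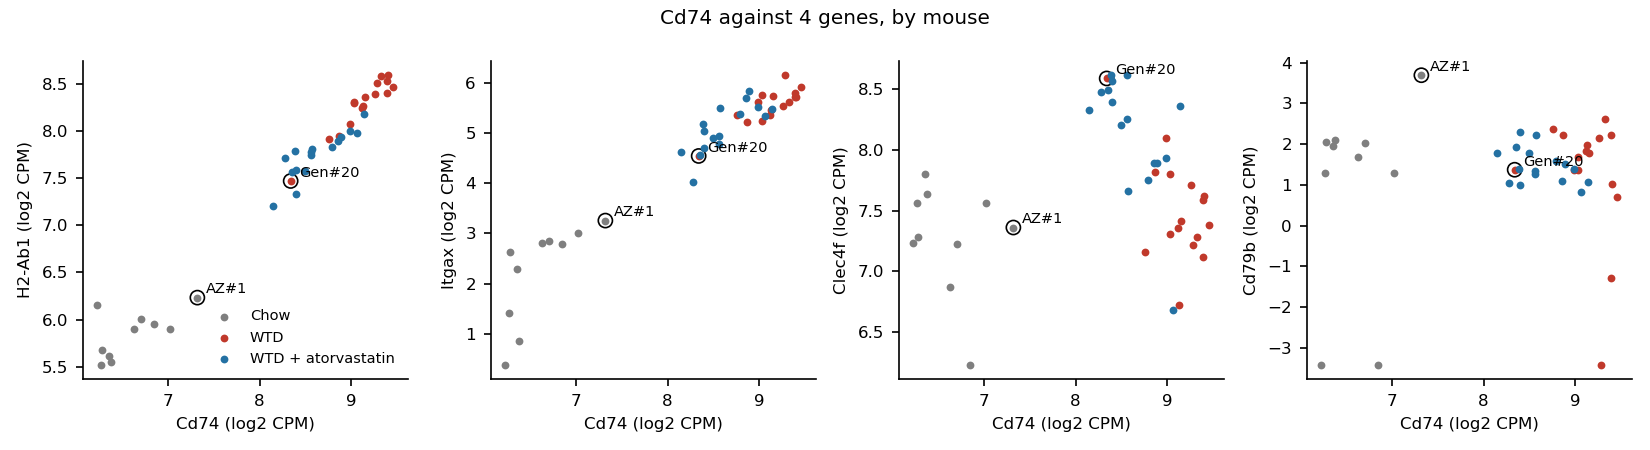
Cd74 (log2 CPM) against H2-Ab1, Itgax, Clec4f and Cd79b in each mouse, coloured by group, with rings around AZ#1 and Gen#20. H2-Ab1 and Itgax follow Cd74 within the WTD and atorvastatin groups, Clec4f runs against it in the atorvastatin group, and Cd79b shows no such relation.

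The genes most like the members were described over the 42 mice after removing each group's mean (mean Pearson r with the 7 members, no test). The members correlated with each other at r from 0.12 (H2-DMa with H2-DMb1) to 0.92 (H2-Eb1 with Cd74), and Ciita had r from 0.29 to 0.46 with the other 6. The 15 genes highest on this scale had mean r from 0.52 to 0.62. They were, in order, Lpl (lipoprotein lipase), Ctss, Gla, Vim, Gadd45b, Lyz2 (macrophage lysozyme), Atp6v0d2, Galnt17, Pdgfb, Aldoa, Gpx3, Dpt, Uap1l1, Pkm and Itgax. Of these 15 genes 13 were called higher on WTD than on chow, against 17.5% of all tested genes. Lower on atorvastatin than on WTD were 10, against 2.26% of all tested genes. Lpl had the highest mean r (0.62), and rose by 3.70 on the log2 scale on WTD and was lower by a log2 value of -1.02 on atorvastatin. With Spearman in place of Pearson correlation, 10 of the 15 remained among the first 15.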

How the data were processed

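Liver mRNA of 42 mice was sequenced as strand-specific paired 150-base reads. Per the labels and the submitters' processing notes, the authors used Trimmomatic for trimming, STAR 2.5 for alignment to GRCm38 and HTSeq 0.6.1p1 for counting. The deposited values are raw counts for 54446 genes, and the 42 single tables were identical to the merged one. Lines that name no gene were left out (read pairs in no gene 2.00% to 2.78%, ambiguous 5.43% to 6.57%, not uniquely aligned 4.07% to 5.36%). Symbols, positions and merged exon lengths came from GENCODE vM21 (54409 identifiers found), the study having used release 19, and promoters from RefSeq GRCm38.p6.

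The filter filterByExpr kept 15574 genes. With TMM factors, all 42 mice entered 1 quasi-likelihood model (edgeR 4.0.16, R 4.3.3) that had the group as its only term, the labels naming no batch. Benjamini-Hochberg adjustment ran over the genes kept, and a gene was called under 0.01. The test was tried on simulated data. Ratios used a pseudocount of 0.5, and log2 CPM a prior count of 2. Alternatives were RLE scaling, no scaling factors, no expression filter, a minimum of 10 counts per mouse, pairs of groups alone, leaving out the 9 libraries that missed weakly expressed genes or each mouse in turn, DESeq2 1.42.0, limma-voom (limma 3.58.1), a pseudocount of 5 and Spearman correlation. Scaling without factors and leaving out AZ#1 with Gen#20 were added after seeing the data. The named genes are the 7 members, up to 3 called genes per list and comparison with the smallest p, and the 15 genes most like the members; other list genes were named after their values were seen. 1 gene of the interferon gamma list is not reported here. Members, lists and tests were chosen with earlier results of these data known. Per the study, mice were group-housed and atorvastatin was mixed into the diet, while the labels name no cage. Effects of the cage can therefore not be told apart from those of the group. The p-values measure the spread between mice and treat cage mates as independent.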

Additional observations from a re-analysis of the deposited data

Results flagged for a closer look

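Within the chow group of 10 mice, the highest and the lowest value of each member and of the summed dendritic cell, B cell and macrophage markers was compared with the nearest other mouse by Dixon's ratio (10 quantities). Chow mouse AZ#1 stood apart in 3 of them, being the highest mouse each time: H2-Eb1 at 114 CPM, Ciita at 14.5 CPM and the summed B cell markers at 73.0 CPM. The next chow mouse was at 82.4 CPM for H2-Eb1, 6.15 CPM for Ciita and 26.3 CPM for the B cell markers. Chance flags about 1 in 20 groups if the values are normally distributed, and the 3 values come from 1 mouse. The ratio was taken on CPM and not on the log2 scale, where high values stand out less, so chance may flag more groups than that. Whether B cells in that sample had a part in its class II levels was not tested. Without AZ#1 and Gen#20 the counts of called members were 7, 5 and 7 as before.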

How the results depend on the processing

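The number of members called was 7 of 7 for WTD against chow and for atorvastatin against chow under every alternative run, and 5 to 6 of 7 for atorvastatin against WTD except at a minimum absolute log2 fold change of 1, which left 0. Leaving out each mouse in turn gave 7 to 7, 4 to 5 and 7 to 7 members. No member changed direction under any alternative. The number of the 18 ratios to H2-Ab1 past the threshold was 4, and 7 without the 9 libraries that missed weakly expressed genes, where the cause of the gain was not tested. Leaving out AZ#1 and Gen#20 let the ratios of H2-DMa (0.28, adjusted p = 0.0248) and Ciita (0.37, adjusted p = 0.029) pass for atorvastatin against WTD, and a pseudocount of 5 let that of Ciita pass (0.34, adjusted p = 0.0471). Over all genes, 1106 were called for atorvastatin against WTD, but 3145 by limma-voom and 1664 without the 9 libraries. For the weakly expressed chains, low counts limit how precisely the fold change can be measured. The lowest count of Ciita in any mouse was 38 (AZ#2). The prior count of 2 was used for log2 CPM and not for these fold changes. No paired analysis was possible because the mouse numbers name different animals in each group.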
